A study of Mus musculus with 27 samples.

Results

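Interferon-stimulated genes were examined here as a set of 54 mouse gene symbols, drawn from the sensors, transcription factors, antiviral effectors and GTPases that interferon is known to induce. They were chosen by name, with results of these mice already known, and selected on their read counts, being kept when at least 10 reads were counted in 6 or more of the 27 liver libraries. The table held 53 of the 54 symbols, Mx1 was not analysed here, and all 53 passed, out of 13981 of 23191 named symbols that passed the same count rule. In 52 of them at least 10 reads were counted in every library. Slfn4 was the member nearest the threshold, with at least 10 reads in 16 libraries, 4 on chow and 12 on HF/HS, and 2 to 61 reads in a library, so it met the rule only through the HF/HS livers. No listed symbol in the table fell short of it.

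Livers came from male C57BL/6J mice that were 8 weeks old at the start and then fed chow or a diet rich in fat and sucrose (HF/HS) for 4 weeks. HGFAC-KO mice carried a whole-body CRISPR/Cas9 deletion that took out part of exon 1 and the whole of exon 2 of Hgfac, which encodes a serine protease made by hepatocytes that cleaves pro-HGF, and their littermates served as controls. The groups were 7 control and 6 HGFAC-KO mice on chow, and 7 control and 7 HGFAC-KO mice on HF/HS, each mouse giving 1 library of poly(A) RNA. Both diets and both genotypes were compared, to ask how the absence of HGFAC altered the liver and its response to the diet.

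Interferons are secreted proteins that warn cells of infection. Type I and type III interferons signal through Jak1 and Tyk2 to a complex containing Stat2 and Irf9 that binds the interferon-stimulated response element, whereas interferon gamma acts at the gamma-activated sequence. The induced genes sense foreign nucleic acid, degrade viral RNA, block translation, attack intracellular vacuoles and present antigen, and in liver they are made by hepatocytes as well as by Kupffer and endothelial cells.

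Promoters of the members were searched for the response element because it is the feature that the set's name refers to. In the RefSeq promoter table (assembly GRCm38.p6, 250 bases before to 50 bases after each start), 42 of the 53 members had an entry. The response element core, searched as GAAANNGAA on both strands, stood in 24 of these 42 genes (57.1%), against 2638 of 27025 genes in the whole table (9.76%). The gamma-activated sequence, searched as TTCNNNGAA, which reads the same on both strands, stood in 11 of 42 (26.2%), against 2582 of 27025 (9.55%). Both motifs were present in 7 members and neither in 14. The letters of GAAANNGAA also hold most of the shorter core AANNGAAA, so a site can match both. A match is a description of these letters in this window and does not show that a factor bound there. The stretches below, from 9 of the 24 members, show the core as a single match, in overlapping runs and in neighbouring copies of a gene, read on the strand of the gene, with each core match in capitals.
Stat2, chr10:128270265-128270297, plus strand: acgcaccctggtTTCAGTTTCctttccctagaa
Ifit1, chr19:34640768-34640825, plus strand: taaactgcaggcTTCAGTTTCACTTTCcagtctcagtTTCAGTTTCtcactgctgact
Ifit3, chr19:34583362-34583447, plus strand: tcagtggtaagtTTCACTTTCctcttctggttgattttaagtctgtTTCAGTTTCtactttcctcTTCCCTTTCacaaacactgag
Ifit3b, chr19:34607758-34607843, plus strand: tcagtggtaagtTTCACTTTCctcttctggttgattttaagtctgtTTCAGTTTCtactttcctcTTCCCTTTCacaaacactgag
Isg15, chr4:156200864-156200908, minus strand: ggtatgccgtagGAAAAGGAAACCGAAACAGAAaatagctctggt
Oas1a, chr5:120907526-120907557, minus strand: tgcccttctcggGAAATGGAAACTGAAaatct
Oas3, chr5:120777708-120777746, minus strand: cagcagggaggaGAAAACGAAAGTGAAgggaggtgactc
Igtp, chr11:58199510-58199542, plus strand: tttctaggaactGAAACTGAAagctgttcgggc
Cxcl10, chr5:92349082-92349114, minus strand: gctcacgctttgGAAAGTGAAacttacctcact

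Cores of Isg15, Oas1a and Oas3 overlapped each other head to tail, 3 in Isg15 and 2 in each of the others. In Ifit1, 2 of the 3 core matches overlapped. The 86 printed bases of Ifit3 and Ifit3b were identical, and each held 3 core matches. With the 2 promoters laid over each other at an offset of 32 bases, 201 of 268 bases (75%) were identical. Such neighbours share sequence, and reads of Ifit3 and Ifit3b, Tgtp1 and Tgtp2, the Oas1 genes, Oasl1 and Oasl2, and the Gbp and Slfn families may have been split between copies by the counting, so their separate values are uncertain. Igtp and Irgm2 also overlap in the annotation, as do the ends of Parp9 and Dtx3l. Members lay close together in the genome, with 26 of the 53 in 9 groups whose neighbours were at most 500000 bases apart (GRCm38, GENCODE M21). Examples are the 4 Ifit genes at chr19:34550694-34650009, Oas2, Oas3 and Oas1a at chr5:120730333-120907521, and Irgm1, Tgtp1, Tgtp2 and Ifi47 at chr11:48861968-49096974.

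Hgfac, read first as a check of the labels, lay at 183 to 219 CPM (median 201) in control and 65.4 to 84.5 CPM (median 76.7) in HGFAC-KO mice on chow, against 247 to 296 CPM (median 273) and 81.8 to 101 CPM (median 89.2) on HF/HS. The genotypes did not overlap on either diet, and the log2 fold change was -1.41 ± 0.07 (adjusted p = 3.05e-08) on chow and -1.56 ± 0.06 (adjusted p = 1.66e-10) on HF/HS (edgeR's quasi-likelihood test, Benjamini-Hochberg adjusted over all genes tested, as for every adjusted p given here). Libraries held 36056177 to 57298657 counts (median 47239271). Hepatocyte markers were abundant in every library, with a summed level of 83519 CPM or more. Levels are given as CPM, the reads of a gene scaled to the total of its library after TMM normalization. In bulk liver, fewer cells of a type and less RNA per cell cannot be told apart.

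HF/HS feeding went with higher levels of most members in both genotypes. In controls 43 of 53 members were higher on HF/HS and 0 were lower at an adjusted p under 0.05, where 4.93% of the 13525 genes tested were called higher. The median log2 fold change of the members was 0.65, and that of all genes was 0.00. In HGFAC-KO mice 49 of 53 were higher and 0 lower, where 3.17% of 13613 genes were called higher, with a median of 0.78 for the members and 0.00 for all genes. No mouse is shared between these comparisons. Called in both were 42 members, in controls alone 1 (Ifi35), in HGFAC-KO mice alone 7 (Tap1, Ifi47, Stat2, Igtp, Tgtp1, Tgtp2 and Gbp2), and in neither 3 (Bst2, Irf1 and Cxcl10). The list was drawn up with earlier results of these mice known, so these counts describe it and are not independent evidence.

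The separation was also visible mouse by mouse. Every control mouse on HF/HS lay above every control mouse on chow in 25 of 53 members, where this held for 1.57% of the genes tested. In HGFAC-KO mice it held for 42 of 53 members, Slfn4 among them, and for 1.70% of genes. In 18 members the 14 HF/HS mice of both genotypes all lay above the 13 chow mice, as in 0.280% of 13932 genes. Log2 fold changes ranged from -0.01 (Irf1) to 1.64 (Slfn4) in controls and from 0.16 (Cxcl10) to 2.07 (Slfn4) in HGFAC-KO mice. Slfn4 passed the count rule only through the livers in which it was high, and without it the highest values were 1.5 (Ifi44) and 1.61 (Oas3), with 42 and 48 of 52 members called higher. Across the 53 members the log2 fold changes in controls and in HGFAC-KO mice correlated with r = 0.80 and rho = 0.79, where r was 0.74 over 13469 genes. Slfn4, the highest in both genotypes, was kept in this correlation, and no value without it was computed. The correlation is across genes, which are not independent replicates.

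**Figure D1:**
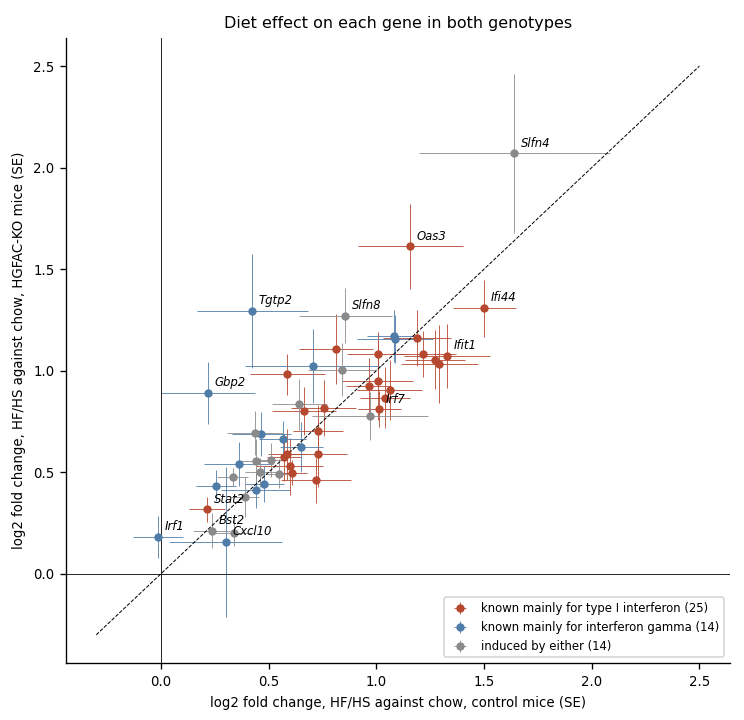
Log2 fold change of HF/HS against chow in controls (x axis) and in HGFAC-KO mice (y axis) for 53 genes, with standard errors as bars, the line of equality dashed, and colours for the interferon each gene is best known to answer to. Slfn4, Ifi44 and Oas3 lie far from the origin, whereas Irf1, Bst2 and Cxcl10 lie near it.

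Sorted by the interferon they are best known to answer to, from textbook knowledge, 25 type I-leaning members had a median log2 fold change of 0.96 in controls (24 called higher) and 0.91 in HGFAC-KO mice (25 called higher). For 14 members that lean to interferon gamma the medians were 0.45 (6 called higher) and 0.65 (12 called higher). For the 14 that answer to either, the medians were 0.49 (13 called higher) and 0.56 (12 called higher). These differences between classes were not tested.

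Some markers of other cells were called too, where 4.93% of all genes in controls and 3.17% in HGFAC-KO mice were called higher. Of 11 Kupffer cell markers, 0 were called in controls (2 higher and 1 lower at an unadjusted p under 0.05), with a median log2 fold change of 0.26, and 7 were called higher in HGFAC-KO mice (median 0.50), led by Cd68 (0.51 ± 0.09, adjusted p = 0.0029), C1qa and Clec4f. Their summed level was 198 to 407 CPM (median 286) in control and 190.2 to 289 CPM (median 229) in HGFAC-KO mice on chow, against 246 to 501 CPM (median 312) and 265 to 414 CPM (median 336) on HF/HS. None of the 11 was at 0. The monocyte and dendritic cell list had 0 of 8 called in controls (3 higher at an unadjusted p under 0.05, list median 0.40) and 2 of 9 higher in HGFAC-KO mice (Siglech and Ccr2, with 4 under an unadjusted p of 0.05 and a list median of 0.60), at summed levels of 2.51 to 8.63 CPM over all mice. Of the T and NK cell markers, 1 of 6 (Cd4) was called higher in controls (list median 0.13) and 2 of 8 (Cd4 and Cd3d) in HGFAC-KO mice (list median 0.31), at 1.6 to 6.31 CPM summed. Of 3 neutrophil markers tested, S100a8 was called higher in controls (1.62 ± 0.36, adjusted p = 0.0082; list median 1.32) and 0 were called in HGFAC-KO mice (3 higher at an unadjusted p under 0.05, list median 0.98). Of 7 endothelial markers 0 were called in controls (3 higher at an unadjusted p under 0.05) and Stab2 was called higher in HGFAC-KO mice (0.42 ± 0.09, adjusted p = 0.0124). Of 6 stellate markers Lrat was called lower in controls (-0.60 ± 0.16, adjusted p = 0.0273), with the other 5 at positive values, 2 of them under an unadjusted p of 0.05 (list median 0.15), and 0 were called in HGFAC-KO mice (1 higher at an unadjusted p under 0.05, list median 0.40). The B and plasma cell and cholangiocyte lists had 0 called in either genotype, also at an unadjusted p under 0.05. Of 10 hepatocyte markers Apoa1 and Fgb were called higher and Tat lower in controls, and Fgb higher and Tat lower in HGFAC-KO mice. The part of these cells in the members' difference was not tested.

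**Figure D2:**
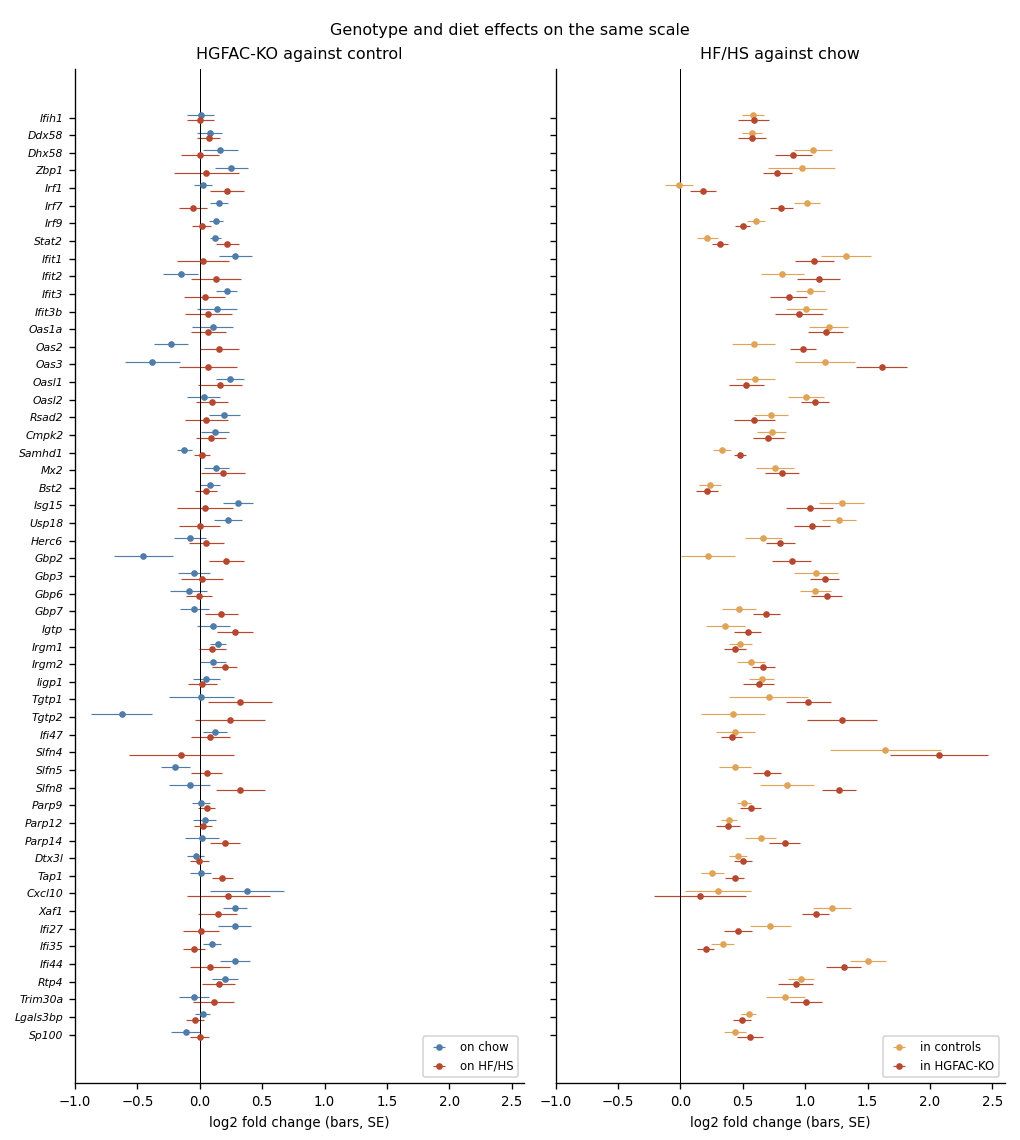
Log2 fold change with its standard error (x axis) for each of 53 genes, ordered by role, for HGFAC-KO against control on each diet (left) and HF/HS against chow in each genotype (right; Slfn4 was not tested for genotype on chow). Genotype effects lie on both sides of 0 and diet effects almost all to the right of it, from -0.01 for Irf1 in controls to 2.07 for Slfn4 in HGFAC-KO mice.

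Among the transcription factors, Irf7, which switches on the type I interferon genes themselves, lay at 24.2 to 31.8 CPM (median 28.3) in control and 26.8 to 34.2 CPM (median 32.3) in HGFAC-KO mice on chow, against 45.6 to 71.8 CPM (median 56.8) and 42 to 67.2 CPM (median 54.4) on HF/HS. All HF/HS mice lay above all chow mice. Its log2 fold change was 1.01 ± 0.10 (adjusted p = 1.08e-05) in controls and 0.81 ± 0.09 (adjusted p = 7.35e-05) in HGFAC-KO mice. Irf9, the DNA-binding partner of Stat2, lay at 42.1 to 49.2 CPM (median 47.2) in control and 45.2 to 54.3 CPM (median 51.5) in HGFAC-KO mice on chow, against 59 to 85.9 CPM (median 67.7) and 64.4 to 80.1 CPM (median 69.9) on HF/HS. Here too the diets did not overlap. The log2 fold change was 0.61 ± 0.07 (adjusted p = 5.47e-05) in controls and 0.50 ± 0.06 (adjusted p = 0.000261) in HGFAC-KO mice.

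Stat2, a further part of that complex, lay at 105 to 117 CPM (median 109) in control and 112 to 127 CPM (median 122) in HGFAC-KO mice on chow, against 107 to 168 CPM (median 125) and 133 to 166 CPM (median 149) on HF/HS. Control diets overlapped, HGFAC-KO diets did not, and the log2 fold change was 0.22 ± 0.08 (adjusted p = 0.115) in controls and 0.32 ± 0.06 (adjusted p = 0.00672) in HGFAC-KO mice. Irf1, a factor induced early by interferon gamma, lay at 33.1 to 43.5 CPM (median 38.9) in control and 35.4 to 43.2 CPM (median 38) in HGFAC-KO mice on chow, against 28.9 to 50.9 CPM (median 35.4) and 35.8 to 58.1 CPM (median 44.1) on HF/HS. The groups overlapped throughout, with a log2 fold change of -0.01 ± 0.11 (adjusted p = 0.961) in controls and 0.18 ± 0.10 (adjusted p = 0.326) in HGFAC-KO mice. Irf7 is at chr7:141262706-141266481, Irf9 at chr14:55603571-55610030, Stat2 at chr10:128270559-128292849 and Irf1 at chr11:53770014-53778374 (GRCm38).

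**Figure D3:**
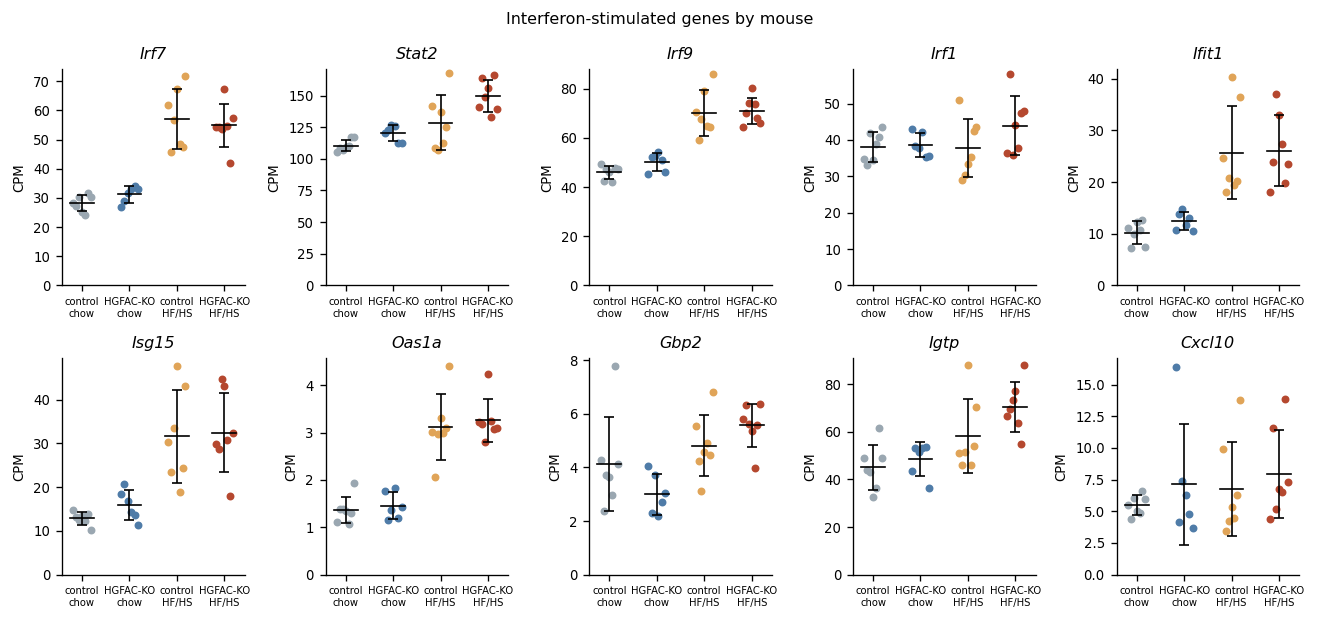
CPM (y axis, from 0) of 10 representative genes in each mouse of the 4 groups, with the group mean as a line and the SD as a bar. Irf7, Irf9, Ifit1 and Oas1a separate the diets in both genotypes, whereas Irf1 and Cxcl10 overlap across all 4 groups.

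The 4 nucleic acid sensors were called higher in both genotypes. Median levels of Ddx58 (RIG-I, a sensor of viral RNA ends) went from 37.6 to 54.3 CPM in controls and 41.6 to 57.2 CPM in HGFAC-KO livers. Those of Ifih1 (MDA5, a sensor of long double-stranded RNA) went from 34 to 50.8 CPM in controls and 35.4 to 47.1 CPM in HGFAC-KO livers. Dhx58, their regulator LGP2, went from 13.4 to 29 CPM in controls and 15.2 to 25.5 CPM in HGFAC-KO livers. It had the larger fold of these, at 1.06 ± 0.15 (adjusted p = 0.000351) in controls and 0.91 ± 0.15 (adjusted p = 0.00234) in HGFAC-KO mice. Zbp1, a sensor of Z-form nucleic acids that can start necroptosis, went from 5.86 to 9.42 CPM in controls and 6.93 to 12.3 CPM in HGFAC-KO livers, and in controls its diets overlapped.

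Ifit proteins bind viral RNA and hinder its translation. Ifit1, at chr19:34640871-34650009, lay at 7.21 to 12.7 CPM (median 10.7) in control and 10.4 to 14.7 CPM (median 12.4) in HGFAC-KO mice on chow, against 18.1 to 40.3 CPM (median 20.7) and 18 to 37 CPM (median 23.9) on HF/HS. HF/HS and chow mice did not overlap in either genotype. The log2 fold change was 1.33 ± 0.20 (adjusted p = 0.000651) in controls and 1.07 ± 0.16 (adjusted p = 0.00114) in HGFAC-KO mice. Ifit3, which stabilizes the Ifit1 complex, showed 5.07 to 6.27 CPM (median 5.69) in control and 5.7 to 7.32 CPM (median 6.77) in HGFAC-KO mice on chow, against 8.85 to 16.3 CPM (median 11.1) and 8.59 to 16.8 CPM (median 11.7) on HF/HS. Again no mouse on HF/HS lay within the chow range, and the log2 fold change was 1.04 ± 0.12 (adjusted p = 3.49e-05) in controls and 0.87 ± 0.15 (adjusted p = 0.00333) in HGFAC-KO mice. Median levels of Ifit2 went from 3.76 to 5.91 CPM in controls and 3.19 to 6.47 CPM in HGFAC-KO livers. Those of the Ifit3 copy Ifit3b, whose reads may be shared with Ifit3, went from 1.47 to 2.77 CPM in controls and 1.56 to 2.76 CPM in HGFAC-KO livers.

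Oligoadenylate synthetases make the messenger that activates the ribonuclease RNase L. All 5 members of this family were called higher in both genotypes, with medians of the log2 fold change of 1.01 in controls and 1.08 in HGFAC-KO mice. Oas1a, at chr5:120896256-120907521, lay at 1.07 to 1.94 CPM (median 1.34) in control and 1.16 to 1.84 CPM (median 1.4) in HGFAC-KO mice on chow, against 2.06 to 4.41 CPM (median 3.005) and 2.8 to 4.24 CPM (median 3.18) on HF/HS. The diets did not overlap. Its log2 fold change was 1.19 ± 0.16 (adjusted p = 0.000157) in controls and 1.16 ± 0.14 (adjusted p = 0.000174) in HGFAC-KO mice. Oas2 had medians of 4.3 to 7.26 CPM in controls and 3.89 to 7.41 CPM in HGFAC-KO livers, with a log2 fold change of 0.59 ± 0.17 (adjusted p = 0.0416) in controls and 0.98 ± 0.10 (adjusted p = 6.43e-05) in HGFAC-KO mice. Medians of Oas3 were 1.38 to 3.07 CPM in controls and 1.13 to 3.2 CPM in HGFAC-KO livers. The catalytically inactive Oasl1, known to restrain translation of Irf7, had medians of 24.7 to 37.5 CPM in controls and 29.5 to 46.2 CPM in HGFAC-KO livers. Its relative Oasl2 had medians of 3.54 to 7.28 CPM in controls and 3.79 to 8.03 CPM in HGFAC-KO livers and a log2 fold change of 1.01 ± 0.14 (adjusted p = 0.000316) in controls and 1.08 ± 0.11 (adjusted p = 6.43e-05) in HGFAC-KO mice.

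Of the other antiviral effectors, 4 of 5 were called higher in each genotype. Rsad2 (viperin), an enzyme making a chain-terminating nucleotide, went from medians of 14.1 to 22.3 CPM in controls and 17.4 to 24.1 CPM in HGFAC-KO livers. Its neighbour Cmpk2, a nucleotide kinase of mitochondria, went from 9.66 to 16.5 CPM in controls and 10.8 to 18.1 CPM in HGFAC-KO livers. Samhd1, which removes the deoxynucleotides that viruses need, went from 23.1 to 29.7 CPM in controls and 21.4 to 30.4 CPM in HGFAC-KO livers. Its fold was small but its mice were close together, with a log2 fold change of 0.33 ± 0.07 (adjusted p = 0.00794) in controls and 0.48 ± 0.05 (adjusted p = 4.63e-05) in HGFAC-KO mice. Mx2, a dynamin-like GTPase that GENCODE M21 annotates as a polymorphic pseudogene, went from 9.61 to 16.8 CPM in controls and 10.8 to 18.7 CPM in HGFAC-KO livers. The exception was Bst2 (tetherin), which holds budding virions at the membrane. It was the most abundant member per kilobase of exon, with a control chow mean of 154 CPM per kb. Its median levels were 145 to 157 CPM in controls and 143 to 163 CPM in HGFAC-KO livers, and the log2 fold change was 0.24 ± 0.09 (adjusted p = 0.0898) in controls and 0.21 ± 0.09 (adjusted p = 0.162) in HGFAC-KO mice.

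Isg15 is a ubiquitin-like modifier, Usp18 removes it and blocks the type I receptor, and Herc6 is its ligase in the mouse. Isg15, at chr4:156199424-156200818, lay at 10.1 to 14.8 CPM (median 13.1) in control and 11.4 to 20.6 CPM (median 15.5) in HGFAC-KO mice on chow, against 18.9 to 47.6 CPM (median 30.3) and 18 to 44.6 CPM (median 30.7) on HF/HS. Control diets did not overlap, whereas in HGFAC-KO mice the lowest HF/HS mouse lay below the highest chow mouse. The log2 fold change was 1.29 ± 0.18 (adjusted p = 0.000348) in controls and 1.04 ± 0.19 (adjusted p = 0.00604) in HGFAC-KO mice. Usp18 lay at 8.72 to 13.1 CPM (median 10.9) in control and 10.1 to 15.9 CPM (median 12.6) in HGFAC-KO mice on chow, against 18.7 to 36.9 CPM (median 23.2) and 20.2 to 34.5 CPM (median 24.9) on HF/HS. HF/HS mice were all above chow mice, and the log2 fold change was 1.27 ± 0.14 (adjusted p = 2.68e-05) in controls and 1.05 ± 0.15 (adjusted p = 0.000719) in HGFAC-KO mice. Herc6 went from medians of 9.51 to 14.9 CPM in controls and 9.37 to 15 CPM in HGFAC-KO livers and was called higher in both genotypes.

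Guanylate-binding proteins and immunity-related GTPases attack the vacuoles of intracellular pathogens and are best known as targets of interferon gamma. Of the 4 Gbp members 3 were called higher in controls and 4 in HGFAC-KO mice. Gbp6 lay at 3.43 to 5.91 CPM (median 3.77) in control and 2.73 to 4.91 CPM (median 3.99) in HGFAC-KO mice on chow, against 7.42 to 10.8 CPM (median 8.72) and 7.02 to 10.9 CPM (median 8.78) on HF/HS. The diets did not overlap, and the log2 fold change was 1.08 ± 0.12 (adjusted p = 3.72e-05) in controls and 1.17 ± 0.13 (adjusted p = 7.28e-05) in HGFAC-KO mice. Gbp3 had medians of 4.05 to 7.79 CPM in controls and 3.88 to 8.59 CPM in HGFAC-KO livers and a log2 fold change of 1.09 ± 0.18 (adjusted p = 0.000931) in controls and 1.16 ± 0.12 (adjusted p = 6.07e-05) in HGFAC-KO mice. Gbp7 had medians of 10.9 to 15.3 CPM in controls and 12 to 17.9 CPM in HGFAC-KO livers. Gbp2, at chr3:142620602-142638008, lay at 2.39 to 7.8 CPM (median 3.71) in control and 2.18 to 4.05 CPM (median 2.88) in HGFAC-KO mice on chow, against 3.12 to 6.81 CPM (median 4.59) and 3.98 to 6.36 CPM (median 5.62) on HF/HS. The highest control on chow lay above every other mouse of the 4 groups. The log2 fold change was 0.22 ± 0.22 (adjusted p = 0.579) in controls and 0.89 ± 0.15 (adjusted p = 0.00335) in HGFAC-KO mice. Without that mouse, control chow replicate 6, the value in controls was 0.45, and with each control left out in turn it was 0.12 to 0.45.

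Among the 7 immunity-related GTPases, 3 were called higher in controls (Irgm1, Irgm2 and Iigp1) and 7 in HGFAC-KO mice. Igtp, at chr11:58199556-58207591, lay at 32.8 to 61.5 CPM (median 44) in control and 36.4 to 53.4 CPM (median 52.2) in HGFAC-KO mice on chow, against 45.9 to 87.8 CPM (median 51.4) and 55 to 88.2 CPM (median 69.3) on HF/HS. Control diets overlapped and HGFAC-KO diets did not. The log2 fold change was 0.36 ± 0.16 (adjusted p = 0.17) in controls and 0.54 ± 0.11 (adjusted p = 0.00833) in HGFAC-KO mice. The regulators Irgm1 and Irgm2 went from medians of 81.4 to 109 CPM in controls and 92.8 to 120.5 CPM in HGFAC-KO livers, and of 54.3 to 75.5 CPM in controls and 56.3 to 90.6 CPM in HGFAC-KO livers, respectively. Iigp1, the most abundant of these GTPases by CPM, went from 203 to 298 CPM in controls and 210.5 to 338 CPM in HGFAC-KO livers. The near-identical Tgtp1 and Tgtp2 were low, with medians of 0.891 to 1.67 CPM in controls and 1.03 to 2.14 CPM in HGFAC-KO livers for the former and of 0.664 to 0.775 CPM in controls and 0.434 to 0.94 CPM in HGFAC-KO livers for the latter. Ifi47 went from 14.8 to 17.9 CPM in controls and 15.8 to 20.7 CPM in HGFAC-KO livers. An effect called in HGFAC-KO mice and not in controls is not thereby shown to differ between them, and the test of that difference is given with the interaction.

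Schlafen proteins restrain proliferation and translation, and Slfn5 and Slfn8 were called higher in both genotypes. Slfn8 lay at 0.91 to 1.85 CPM (median 1.44) in control and 1.09 to 1.73 CPM (median 1.38) in HGFAC-KO mice on chow, against 1.75 to 4.99 CPM (median 2.47) and 2.82 to 4.08 CPM (median 3.49) on HF/HS, overlapping between control diets only, with a log2 fold change of 0.86 ± 0.22 (adjusted p = 0.0185) in controls and 1.27 ± 0.13 (adjusted p = 6.85e-05) in HGFAC-KO mice. Slfn5 had medians of 14.3 to 18 CPM in controls and 11.7 to 20.5 CPM in HGFAC-KO livers. Slfn4, known from myeloid cells, had medians of 0.16 to 0.343 CPM in controls and 0.0849 to 0.455 CPM in HGFAC-KO livers and the widest spread between mice of the set. It too was called higher in both genotypes, but only the HF/HS livers carried it past the count rule.

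Parp9 and Dtx3l form an ADP-ribosyltransferase and ubiquitin ligase pair, and they were called higher in both genotypes together with the related Parp12 and Parp14. Parp9 lay at 63.1 to 71.3 CPM (median 68) in control and 50.03 to 72.6 CPM (median 70.6) in HGFAC-KO mice on chow, against 85.6 to 112 CPM (median 94.8) and 90.9 to 110.4 CPM (median 99.5) on HF/HS. HF/HS mice were all above chow mice, with a log2 fold change of 0.51 ± 0.06 (adjusted p = 3.52e-05) in controls and 0.56 ± 0.08 (adjusted p = 0.000997) in HGFAC-KO mice. Medians of Dtx3l were 97.5 to 141 CPM in controls and 98.5 to 138 CPM in HGFAC-KO livers, those of Parp12 38.4 to 48.9 CPM in controls and 40.6 to 49.1 CPM in HGFAC-KO livers, and those of Parp14 50.2 to 69.8 CPM in controls and 48.5 to 83.6 CPM in HGFAC-KO livers.

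Tap1, the peptide transporter for antigen presentation, went from medians of 39.8 to 46.9 CPM in controls and 37.8 to 54.8 CPM in HGFAC-KO livers, with a log2 fold change of 0.26 ± 0.09 (adjusted p = 0.0867) in controls and 0.43 ± 0.08 (adjusted p = 0.0036) in HGFAC-KO mice. Cxcl10, the chemokine that draws activated T cells, lay at 4.4 to 6.57 CPM (median 5.52) in control and 3.72 to 16.4 CPM (median 5.51) in HGFAC-KO mice on chow, against 3.47 to 13.8 CPM (median 5.36) and 4.43 to 13.9 CPM (median 6.73) on HF/HS. Its groups overlapped, and 1 HGFAC-KO chow mouse held the highest level of all. The log2 fold change was 0.30 ± 0.26 (adjusted p = 0.523) in controls and 0.16 ± 0.37 (adjusted p = 0.842) in HGFAC-KO mice. With 1 mouse left out it ranged from 0.0319 (without control HF/HS replicate 7) to 0.42 in controls and from -0.0317 (without KO HF/HS replicate 6) to 0.59 (without KO chow replicate 1) in HGFAC-KO mice.

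The remaining 8 members were called higher in controls, and 7 of them in HGFAC-KO mice, with Ifi35 as the exception. Ifi44, a cytoplasmic protein of uncertain action, lay at 1.83 to 2.75 CPM (median 1.95) in control and 2.23 to 3.03 CPM (median 2.54) in HGFAC-KO mice on chow, against 4.41 to 8.61 CPM (median 6.09) and 4.75 to 8.19 CPM (median 5.56) on HF/HS. The diets did not overlap, and its log2 fold change was 1.5 ± 0.15 (adjusted p = 8.21e-06) in controls and 1.31 ± 0.14 (adjusted p = 7.10e-05) in HGFAC-KO mice. Xaf1, an antagonist of an apoptosis inhibitor, lay at 3.86 to 4.46 CPM (median 4.11) in control and 3.76 to 5.94 CPM (median 5.16) in HGFAC-KO mice on chow, against 6.31 to 14.3 CPM (median 9.47) and 9.27 to 13 CPM (median 10.2) on HF/HS. Its diets were separate as well, at 1.22 ± 0.15 (adjusted p = 9.46e-05) in controls and 1.08 ± 0.11 (adjusted p = 6.25e-05) in HGFAC-KO mice.

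Rtp4, a chaperone of receptor trafficking, had medians of 11.6 to 23 CPM in controls and 14 to 23.7 CPM in HGFAC-KO livers, and a log2 fold change of 0.96 ± 0.10 (adjusted p = 2.36e-05) in controls and 0.92 ± 0.14 (adjusted p = 0.00126) in HGFAC-KO mice. The secreted glycoprotein Lgals3bp had medians of 94 to 136 CPM in controls and 97 to 130.02 CPM in HGFAC-KO livers and a log2 fold change of 0.55 ± 0.06 (adjusted p = 2.68e-05) in controls and 0.49 ± 0.07 (adjusted p = 0.000857) in HGFAC-KO mice. Both separated the diets in each genotype. Medians of Ifi27, of the mitochondrial membrane, were 61 to 93.2 CPM in controls and 65.5 to 85.7 CPM in HGFAC-KO livers, and those of Ifi35 24.1 to 29.7 CPM in controls and 26.3 to 31.5 CPM in HGFAC-KO livers. Trim30a, a ubiquitin ligase, had medians of 5.2 to 8.92 CPM in controls and 4.76 to 9.66 CPM in HGFAC-KO livers. Sp100, of the nuclear bodies, had medians of 6.2 to 8.65 CPM in controls and 5.49 to 8.7 CPM in HGFAC-KO livers.

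Members with a response element core in the promoter stretch (24) had a median log2 fold change on HF/HS of 0.65 in controls and 0.88 in HGFAC-KO mice, and those without (18) had 0.57 and 0.51. Both groups of genes contained called members, and the difference was not tested. Of the 3 members called in neither genotype, Cxcl10 and Bst2 held the core and Irf1 did not.

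Loss of HGFAC was not accompanied by a called change in any member. On chow, 0 of 52 members tested were called (edgeR; 0 also by DESeq2 and by limma voom), where 0.00737% of 13571 genes were called, namely Hgfac alone. At an unadjusted p under 0.05, 8 members were higher and 1 lower in HGFAC-KO mice, where 3.39% of genes were higher and 5.98% were under 0.05 in either direction. The median log2 fold change was 0.08, with values from -0.62 (Tgtp2) to 0.38 (Cxcl10), and 37 members were higher, as were 6947 of all 13571 genes. On HF/HS, 0 of 53 were called (0 also by DESeq2 and by limma voom), where 0.0148% of 13544 genes were called. At an unadjusted p under 0.05, 2 members were higher and 0 lower, where 4.94% of genes were higher and 9.64% were under 0.05 in either direction. The median was 0.07, values ran from -0.15 (Slfn4) to 0.33 (Slfn8), and 45 members were higher, as were 6702 of all 13544 genes. Without control HF/HS replicate 7 this median was 0.17.

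The members with the smallest p on chow were Xaf1 (0.28 ± 0.10), Stat2 (0.13 ± 0.05), Ifit3 (0.22 ± 0.08), Tgtp2 (-0.62 ± 0.24) and Isg15 (0.31 ± 0.12), each with an adjusted p of 0.801. Stat2 in chow mice spanned 105 to 117 CPM in controls and 112 to 127 CPM in HGFAC-KO mice, so the genotypes overlapped. In the two-sided exact permutation test of each member over all splits of the chow mice, 6 of 53 had an unadjusted p under 0.05, the lowest being 0.014 for Stat2, and so did 6.02% of all genes tested. On HF/HS the exact permutation test gave 1 of 53 under 0.05, again Stat2 (p = 0.0443), and 9.52% of all genes. The smallest p either design allows is 0.000583.

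On HF/HS the smallest p belonged to Stat2 (0.22 ± 0.09, adjusted p = 0.48), Tap1 (0.18 ± 0.08), Irgm2 (0.20 ± 0.10), Igtp (0.28 ± 0.14) and Parp14 (0.20 ± 0.12, adjusted p = 0.6002). For the other representatives the log2 fold change in HGFAC-KO against control mice was as follows. That of Irf7 was 0.15 ± 0.07 (adjusted p = 0.801) on chow and -0.06 ± 0.11 (adjusted p = 0.906) on HF/HS. That of Irf9 was 0.13 ± 0.05 (adjusted p = 0.801) on chow and 0.01 ± 0.08 (adjusted p = 0.972) on HF/HS. Irf1 had 0.03 ± 0.07 (adjusted p = 0.951) on chow and 0.21 ± 0.14 (adjusted p = 0.631) on HF/HS. The values for Ifit1 and Isg15 were 0.29 ± 0.13 (adjusted p = 0.801) on chow and 0.02 ± 0.21 (adjusted p = 0.981) on HF/HS, and 0.31 ± 0.12 (adjusted p = 0.801) on chow and 0.04 ± 0.22 (adjusted p = 0.972) on HF/HS, respectively. Oas1a had 0.10 ± 0.16 (adjusted p = 0.906) on chow and 0.07 ± 0.14 (adjusted p = 0.908) on HF/HS, and Gbp2 had -0.45 ± 0.24 (adjusted p = 0.81) on chow and 0.21 ± 0.14 (adjusted p = 0.653) on HF/HS, with -0.22 on chow without control chow replicate 6. For Igtp the values were 0.11 ± 0.13 (adjusted p = 0.872) on chow and 0.28 ± 0.14 (adjusted p = 0.547) on HF/HS. For Cxcl10 they were 0.38 ± 0.29 (adjusted p = 0.836) on chow and 0.23 ± 0.33 (adjusted p = 0.867) on HF/HS, and without KO chow replicate 1 the chow value was -0.06. Its value on HF/HS ranged from 0.0405 (without KO HF/HS replicate 6) to 0.50 with 1 mouse left out.

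Whether the diet effect differed between genotypes was tested as the interaction in a fit of all 27 mice. It was called in 0 of 53 members (edgeR; 0 also by DESeq2 and limma voom), where 0% of 13932 genes were called, and the median was 0.00. At an unadjusted p under 0.05 were 2 of 53 members and 3.63% of all genes (1.74% higher). The 2 were Gbp2 (0.67 ± 0.28, adjusted p = 0.984, and 0.44 without control chow replicate 6) and Tgtp2 (0.87 ± 0.39), followed by Oas2 (0.39 ± 0.21), Samhd1 (0.14 ± 0.09) and Slfn8 (0.41 ± 0.27). In these 5 the fitted diet effect was larger in HGFAC-KO mice than in controls. The 25 type I-leaning members had a median of -0.06 and the 14 gamma-leaning ones 0.14. For the other representatives the interaction was -0.21 ± 0.14 for Irf7, -0.11 ± 0.10 for Irf9, 0.10 ± 0.11 for Stat2, 0.19 ± 0.16 for Irf1, -0.26 ± 0.27 for Ifit1, -0.26 ± 0.27 for Isg15, -0.03 ± 0.21 for Oas1a, 0.18 ± 0.21 for Igtp and -0.14 ± 0.47 for Cxcl10, all with an adjusted p of 0.984 or more.

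Levels of the members also varied between mice of a group. The biological coefficient of variation was 0.175 in the median over members, from 0.0848 (Samhd1) to 0.462 (Slfn4). Over 13932 genes, which were not matched to the members in level, it was 0.122. A member score was taken as the mean, over members, of log2 CPM less the mean over all mice. It was -0.55 to -0.22 (median -0.36) in control and -0.44 to -0.30 (median -0.36) in HGFAC-KO mice on chow, and -0.03 to 0.79 (median 0.24) for control and 0.24 to 0.62 (median 0.36) for HGFAC-KO on HF/HS. The diets did not overlap, the genotypes did, and control HF/HS mice were spread most widely. Control HF/HS replicate 7 had the highest level of its group in 36 of 53 members, and replicate 2 the lowest in 28. On chow, KO chow replicate 1 was lowest in 22 members but highest in 11, Cxcl10 among them.

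**Figure D4:**
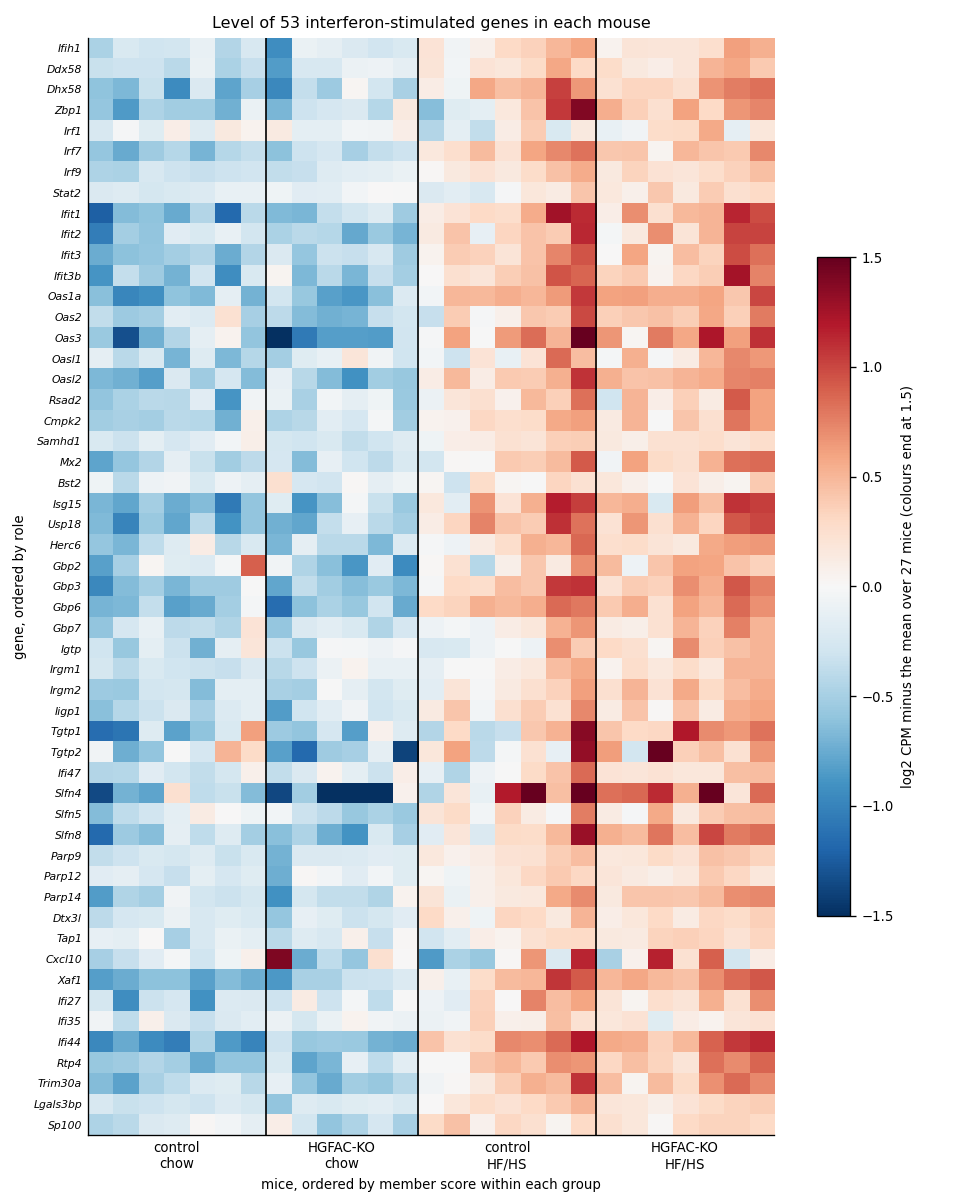
Log2 CPM of 53 genes (rows, by role) less the mean over 27 mice, in each mouse (columns, by score within its group), with red above and blue below the mean. Columns are mostly blue on chow and red on HF/HS, and the last control HF/HS column, replicate 7, is the reddest of its group.

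Levels of the members were related to each other from mouse to mouse. With each group's mean removed, 1275 of 1378 pairs of members had a positive r over the 27 mice, and the median r was 0.44, or 0.35 without control HF/HS replicate 7. The pairs share the same libraries, and these values are given as a description. Pairs of other genes were not computed, so the values are not shown to be particular to the members. Within type I-leaning members the median r was 0.50, within gamma-leaning ones 0.47, and between both 0.43. Irf9 followed the mean of the other members most closely (r = 0.88), with Zbp1, Gbp3 and Ifi47 next, whereas Sp100 followed it least (r = 0.09).

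The score moved with some marker lists between mice. Over 27 mice, with group means removed, r with the summed Kupffer cell markers was 0.62 (rho = 0.53), 0.41 without the 2 mice farthest from the median, and 0.46 without control HF/HS replicate 7. With acute-phase genes r was 0.48 (rho = 0.25), falling to 0.11 and 0.09 in the same way, so that relation rested on those mice. With hepatocyte markers r was -0.49 (rho = -0.57), and with B and plasma cell markers -0.56 (rho = -0.52). For the monocyte and dendritic cell, T and NK cell, neutrophil, endothelial, stellate and cholangiocyte lists r lay between -0.21 and 0.35 (the highest for neutrophils, at 0.0521 without the 2 mice farthest from the median), and for NF-kB targets it was 0.34. Of the pathway lists, r was 0.80 for other interferon-induced genes, 0.61 for sensing adaptors, 0.56 for antigen processing and 0.41 for inhibitors. Without the 2 mice farthest from each list's median these were 0.74, 0.34, 0.33 and 0.0533. The score was little related to the total count (r = 0.15) or to the share of reads on unnamed rows (r = 0.16). No test was made of these relations, and the part of other cells in them was not tested.

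**Figure D5:**
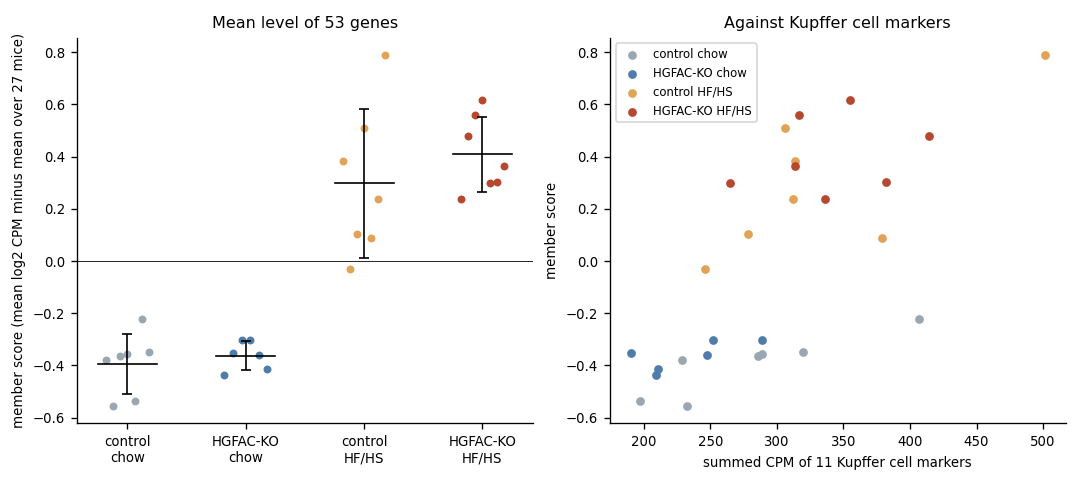
Member score in each mouse of the 4 groups, with mean and SD (left), and the same score against the summed CPM of 11 Kupffer cell markers (right). Scores on HF/HS lie above those on chow, and control HF/HS replicate 7 is highest on both axes, at 0.79 and 501 CPM.

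Upstream of the members, the interferons themselves were almost unread. Of 13 interferon ligand genes in the table, 4 had any read, Ifng (a sum of 40 over 27 libraries), Ifnk (36), Ifnb1 (2) and Ifna11 (1), and no library held more than 5 reads of any. The other 9 had 0 reads, which at the lowest depth allows a level of up to 0.0875 CPM, a limit that covers counting error only. None was testable.

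Among the receptors, Ifngr1, the ligand-binding chain for interferon gamma, was called higher on HF/HS in HGFAC-KO mice at 0.24 ± 0.07 (adjusted p = 0.0482). In controls Ifngr1 was at 0.16 ± 0.06 (adjusted p = 0.117), and its interaction was 0.07 ± 0.09 (adjusted p = 0.984). Ifngr2, Ifnar1, Ifnar2 and Il10rb were called in neither genotype. Of 16 sensing adaptors, 0 were higher and 1 lower in controls (Unc93b1, the chaperone of endosomal Toll-like receptors, -0.25 ± 0.07), and 3 were higher in HGFAC-KO mice (Nlrc5, Tlr9 and Tlr7).

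Of 12 inhibitors, 3 were called higher and 1 lower in controls, and 2 higher in HGFAC-KO mice. Adar, which edits double-stranded RNA so that it is not sensed, had a log2 fold change of 0.60 ± 0.08 (adjusted p = 0.000269) in controls and 0.52 ± 0.07 (adjusted p = 0.000557) in HGFAC-KO mice. Irf2, an antagonist of Irf1, had 0.51 ± 0.11 and 0.45 ± 0.11. Irf2bp1 was called higher and Trim24 lower in controls. Socs1 and Socs3 were not called. Socs3 was at 1.16 ± 0.48 (adjusted p = 0.145) in controls and 0.66 ± 0.46 (adjusted p = 0.434) in HGFAC-KO mice, and Socs1 at 0.33 ± 0.22 and 0.36 ± 0.19.

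A further list of 56 interferon-induced genes, none of them members, had 25 of 51 called higher and 0 lower in controls, with a median of 0.41. In HGFAC-KO mice 28 of 54 were called higher and 0 lower, with a median of 0.54. Among those called were Shisa5 (0.66 ± 0.08) and Pml (0.36 ± 0.05) in controls, and Shisa5 (0.46 ± 0.06) and Uba7 (0.67 ± 0.10), the enzyme that activates Isg15, in HGFAC-KO mice. Antigen processing had 2 of 16 called higher in each genotype, H2-T23 and H2-Q4 in controls and Nlrc5 and Psmb8 in HGFAC-KO mice. Of 12 NF-kB targets 0 were called in either genotype (3 and 2 higher at an unadjusted p under 0.05 in controls and HGFAC-KO mice). Of 14 acute-phase genes 1 was called higher in controls (Fgb) and 3 in HGFAC-KO mice (Fga, Fgg and Fgb). The list median was 0.37 in controls and -0.10 in HGFAC-KO mice, where 8 of the 14 had negative values. Saa2, Saa1 and Lcn2, which are strongly induced in acute inflammation, were at 2.1 ± 1.24, 1.73 ± 1.07 and 1.49 ± 0.96 in controls and -3.11 ± 1.24, -2.19 ± 1.08 and -2.05 ± 1.01 in HGFAC-KO mice, none of them called. Their interaction was under an unadjusted p of 0.05 and had an adjusted p of 0.984. For genotype and for the interaction, 0 genes of these lists were called on either diet (edgeR).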

How the data were processed

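Liver RNA of 27 mice was sequenced from stranded, poly(A)-selected libraries. Per the study's methods, the authors aligned reads with HISAT2 to GRCm38 and counted them with featureCounts (version 1.6.3 in the submitters' processing notes), and deposited whole-number counts in rows named by gene symbol. Whether the counting used strand is not given in the sources used here. The 3886 rows without a gene name, 4.13% to 12.1% of a library's counts, were left out, and 89 symbols on more than 1 row were summed.

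Members and gene lists were chosen with earlier results of these data known. Groups came from the labels, which name separate mice. Comparisons used edgeR 4.0.16 (TMM, filterByExpr with a minimum count of 10 and total of 15, robust quasi-likelihood fits, only the mice compared, all 27 for the interaction), Benjamini-Hochberg adjustment over all genes tested and a threshold of 0.05. The script was tested on simulated data. Log2 CPM had a prior count of 2. DESeq2 1.42.0, limma 3.58.1 (voom), other filters, upper-quartile normalization, a replicate block and leave-one-out were alternatives. Single members were also compared by exact permutation (SciPy 1.17.1), and R 4.3.3 and Python 3.11.15 were used. Genes with full statistics were the 10 called with the smallest p in each comparison, or the 5 smallest where fewer than 5 were called, and 10 representatives of the roles. From other lists up to 3 called genes by p were to be named, and further called genes were named after their values were seen. The permutation p planned for the score was not computed. Of the receptor and kinase list, 1 gene is not reported here. Depth was 36056177 to 57298657 counts, and intervals and limits cover counting error only.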

Additional observations from a re-analysis of the deposited data

Results flagged for a closer look

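In 24 of 212 combinations of a member and a group, the highest or the lowest mouse stood apart from its group by Dixon's 95% criterion. Chance alone would flag about 1 in 20 independent groups, but the members share the same mice and vary together. The share flagged over all genes was not computed. The flags fell on 20 members and on 9 mice. The level of the mouse is given in CPM, with that of the nearest mouse of its group.

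Control HF/HS replicate 7 was highest in 7 members: Ifit2 (9.95 against 6.14), Oas3 (6.09 against 3.63), Oasl2 (11.7 against 7.998), Tgtp1 (3.5 against 1.95), Slfn5 (26.9 against 19.95), Slfn8 (4.99 against 2.85), Trim30a (14.7 against 10.1). KO chow replicate 1 was lowest in 5 members, Ifih1 (21.6 against 33.9), Ddx58 (26.4 against 39.9), Parp9 (50.03 against 70.2), Parp12 (26.3 against 38.4), Lgals3bp (74.7 against 95.7), and highest in Cxcl10 (16.4 against 7.39). Control chow replicate 6 was highest in Cmpk2 (14.3 against 10.3), Gbp2 (7.8 against 4.28), Gbp3 (5.84 against 4.13), Tgtp1 (2.08 against 1.18). The other stand-alone mice were control chow replicate 4 in Ddx58 (44.2 against 38.1), Ifi44 (2.75 against 2.21), control chow replicate 7 in Oas1a (1.94 against 1.4), KO HF/HS replicate 4 in Oas1a (4.24 against 3.25), KO HF/HS replicate 5 as the lowest in Gbp2 (3.98 against 5.35), KO HF/HS replicate 6 in Tgtp2 (1.99 against 1.09) and KO HF/HS replicate 2 in Slfn4 (1.004 against 0.546). Summed Kupffer cell markers in control HF/HS replicate 7 and control chow replicate 6 were 501 and 407 CPM, the highest of their groups, and the part of these cells was not tested.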

How the results depend on the processing

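Under the other tests, filters and normalizations, members called on HF/HS numbered 39 to 44 in controls (43 as reported) and 47 to 49 in HGFAC-KO mice (49). With 1 mouse left out they numbered 37 to 43 and 46 to 49, and genotype and interaction calls stayed at 0 in each alternative. With the replicate number as a block the counts were 39 in controls, 46 in HGFAC-KO mice and 0 for genotype and interaction. Same-numbered mice did not deviate together (26 pairs, correlations from -0.252 to 0.368, 8 above 0.1), so the numbers were not taken as pairs. The block changed no genotype or interaction call.

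The sign of some effects that were not called changed. With 1 mouse left out, the genotype effect ranged on chow from -0.0102 to 0.0601 for Irf1 and from -0.0635 to 0.51 for Cxcl10. On HF/HS it ranged from -0.11 to 0.00664 for Irf7, -0.0223 to 0.069 for Irf9, -0.0791 to 0.17 for Ifit1, -0.0527 to 0.17 for Isg15 and -0.0107 to 0.17 for Oas1a. The diet effect ranged from -0.0947 to 0.0467 for Irf1 in controls and from -0.0317 to 0.59 for Cxcl10 in HGFAC-KO mice. The interaction ranged from -0.14 to 0.0769 for Oas1a and -0.33 to 0.29 for Cxcl10. With limma voom it was 0.0117 and 0.10, and with the block it was 0.00067 for Cxcl10.

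Without the 2 mice farthest from the median of each list, r of the score (over all mice 0.61, 0.41, 0.56, 0.48, 0.62, 0.35 and 0.30 in the order given) was 0.34 for sensing adaptors, 0.0533 for inhibitors, 0.33 for antigen processing, 0.11 for acute-phase genes, 0.41 for Kupffer cell markers, 0.0521 for neutrophil markers and 0.53 for cholangiocyte markers. Chosen after seeing the data, leaving out control HF/HS replicate 7 gave 0.0884 for acute-phase genes. The shorter core AANNGAAA stood in 32 of 42 members (76.2%) and 26.7% of all genes. The cause of these changes was not tested. With 6 or 7 mice in a group, small genotype effects cannot be told from spread between mice.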

Other observations

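Outside the members, 13879 genes were ranked by how closely their level followed the member score over the 27 mice, with group means removed. The 10 closest were Adar (r = 0.88), Luc7l (0.82), Nlrc5 (0.80), Hps5 (0.79), Trim30d (0.77), Tmem184c (0.76), Abitram (0.76), Apol10b (0.75), Chid1 (0.75) and Rars (0.75). Adar and Nlrc5 stood in the lists of pathway genes and the other 8 did not. Adar and Trim30d, a relative of the member Trim30a, were called higher on HF/HS in both genotypes, Trim30d at 0.81 (adjusted p = 0.00227) in controls and 0.89 (adjusted p = 0.00142) in HGFAC-KO mice by edgeR. Luc7l, a splicing factor, followed the members between mice without a called diet effect, at 0.00 in controls and 0.05 in HGFAC-KO mice.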
